A study of Mus musculus with 18 samples.

Results

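The comparison described here set eosinophils of WT mice against eosinophils of Ahr-/- mice, and its members were the 12 samples of those genotypes among the 18 samples of the series. Eosinophils had been sorted from the small intestine of C57BL/6 mice with magnetic beads for CD11b and then by flow cytometry as CD11b+ MHC-II- SiglecF+ cells of high side scatter, and their RNA was sequenced in bulk. Each genotype had 6 samples, 3 from females (F1 to F3) and 3 from males (M1 to M3), and no age or treatment was used in the comparison. The study's methods state that Ahr-/- and WT mice were neither littermates nor cohoused, so litter, housing and genotype cannot be told apart. By the study's account 6 mice of each genotype gave these data. The other 6 samples, labelled Ahrr-/- after the gene of the AHR repressor, entered no test and are given only as levels beside the others.

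AHR (aryl hydrocarbon receptor) belongs to the PAS family of transcription factors and waits in the cytoplasm with chaperones of the HSP90 type until it binds a ligand from diet, microbes or pollutants. It then moves to the nucleus, pairs with ARNT and binds DNA, where it raises genes of xenobiotic metabolism and its own repressor Ahrr. Eosinophils are granulocytes found in the lamina propria of the small intestine. They depend on the cytokine IL-5, whose receptor signals through the common beta chain Csf2rb.

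Sequencing depth ranged from 3842977 to 8149200 counts in WT samples, with a median of 6022410, and from 6581818 to 10284124 counts in Ahr-/- samples, with a median of 9647590, so low counts were less precise in WT. The F3 samples stood apart in both genotypes. WT F3 had 20244 genes with at least 1 count, where the next WT sample had 16526, and Ahr-/- F3 had 19694, where the next had 16704. Levels are given below as normalized counts (counts scaled by the size factor of the sample), as the lowest, the median and the highest of the 6 samples. Differences are WT minus Ahr-/- on the variance-stabilized log2 scale of the deposited values, which compresses the differences of genes with low counts.

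The targeted gene, Ahr on chromosome 12 of GRCm38, had 10766, 13774 and 21591 normalized counts in WT and 18084, 23973 and 26050 in the samples labelled Ahr-/-. The ranges overlapped, and the difference was -0.61 (standard error, SE, 0.19; limma adjusted p = 0.0557). Which part of Ahr was deleted is not given in the sources used here, so a count over the whole gene does not check the label, and genotypes were used as labelled. Among the targets of AHR, Ahrr had 819, 1047 and 1281 normalized counts in WT and 0, 0.837 and 9.43 in Ahr-/- samples. No Ahr-/- sample came near a WT sample for this gene. The same held for Cyp1b1, a monooxygenase, with 349 to 1134 in WT and 0.758 to 4.71 in Ahr-/- samples. Of 9 AHR target genes tested 4 were called, all higher in WT (44.4%, against 3.68% of all genes tested), and 4 or 5 over the fits that each lacked 1 sample. Gsta1 lay the other way without a call (-0.46, limma adjusted p = 0.157), and Cyp1a1, at 0 counts in all 6 WT samples and at most 5.66 in Ahr-/- samples, was too low to test.

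Of 10 eosinophil markers listed, 5 were tested. Prg2, a granule protein, had 48.7, 66.0 and 136 normalized counts in WT and 325, 627 and 925 in Ahr-/- samples, a separated difference of -2.30 that was called whichever sample was left out (adjusted p up to 3.57e-06), and Alox15 is described below. Ccr3, the eotaxin receptor, had 8965, 12557 and 14974 in WT and 10941, 12106 and 15235 in Ahr-/- samples, and the difference of -0.04 was not called (limma adjusted p = 0.902). Siglecf, the surface protein used in the sort, had 1619, 2114 and 2306 in WT and 2309, 2670 and 3113 in Ahr-/- samples. Every Ahr-/- sample lay above every WT sample, by a difference of -0.37 that did not pass the threshold (limma adjusted p = 0.0529). Il5ra, the chain of the IL-5 receptor that binds the cytokine, had a difference of -0.35 without a call (limma adjusted p = 0.179).

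Of 11346 genes tested with limma, 1003 were called at the adjusted threshold of 0.05, which is 8.84% of the genes tested. Among them, 418 had higher values in WT (3.68%) and 585 in Ahr-/- samples (5.16%). For 470 of the called genes (4.14%) all 6 samples of 1 genotype lay above all 6 of the other, 195 of them higher in WT (1.72%) and 275 higher in Ahr-/- samples (2.42%). These are called separated below. The median difference over all genes tested was 0.00. All 1003 called genes had the same direction in males and in females, which is not a separate test because both sexes entered the call. Fitted within each sex, 301 genes were called in males and 244 in females, and 135 were called in both. For the interaction between sex and genotype limma called 0 genes (0%), and 533 had an unadjusted p under 0.05. With recovered counts, limma voom called 0 as well, and 549 had an unadjusted p under 0.05. A stricter minimum level left 5323 genes, of which 0 were called and 210 had an unadjusted p under 0.05. The count of called genes fell to 623 (257 higher in WT and 366 higher in Ahr-/-) without Ahr-/- F1, the count higher in Ahr-/- samples to 385 without Ahr-/- F2, and the count of all called genes to 586 without both F3 samples.

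**Figure D1:**
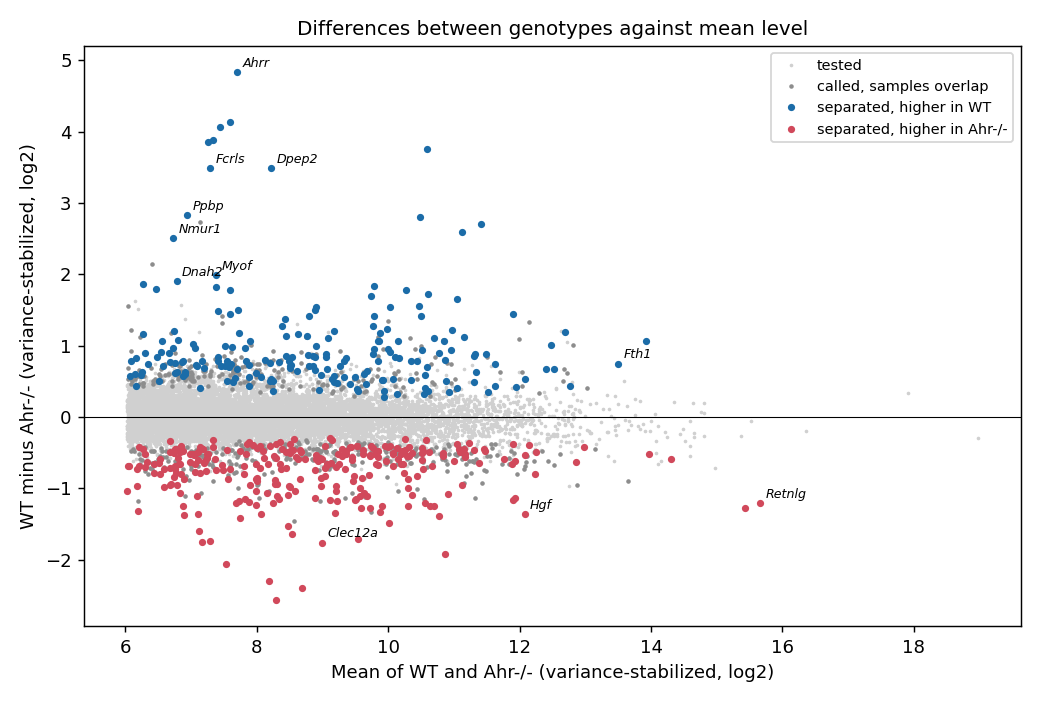
Each point is 1 of the 11346 genes tested. The horizontal axis is the mean of the 12 WT and Ahr-/- samples and the vertical axis the difference WT minus Ahr-/-, both on the variance-stabilized log2 scale. Light grey points were not called, dark grey points were called with overlapping samples, blue points are the 195 separated genes higher in WT and red points the 275 higher in Ahr-/- samples. The largest differences lie toward WT, among them Ahrr at 4.83 and Dpep2 at 3.49.

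Of the separated genes, 177 of the 195 higher in WT and 263 of the 275 higher in Ahr-/- samples were outside the genes already named for these data, and 6 and 12 of these carried no official name and are only counted. Already named means in the running text of the study or of an earlier account, so genes shown only in figures count as outside. The study reports the Notch pathway as enriched in WT eosinophils, although Notch1 counts as outside. Promoters are shown for 6 separated genes of both directions, picked from windows that hold a match, because AHR acts at such DNA and readers can see where its core motif falls. The letters searched were GCGTG, the core of the known AHR and ARNT motif, on both strands, in windows from 250 bases before to 50 bases after each gene start. GCGTG was found in 10639 of all 32851 promoter windows of the reference (32.4%), in 49.6% of the windows of genes tested, in 44.1% of those of separated genes higher in WT and in 37.2% of those of separated genes higher in Ahr-/- samples. With the flanking T and a free base, TNGCGTG, which contains GCGTG, the shares were 5.07%, 7.74%, 11.4% and 5.32%. Of 94 separated named genes with a window, 41 had a match in any window. A match is only a description of the letters in a window. Capitals mark GCGTG, or CACGC where it is read on the other strand, and the windows come from RefSeq on GRCm38.p6, given in the direction of the gene. Ahrr (chr13:74292282-74292581, minus strand) holds 3 matches and Dmxl2 (chr9:54501577-54501876, minus strand) holds 6. Atf3 (chr1:191183284-191183583, minus strand) holds 2 and Notch1 (chr2:26503773-26504072, minus strand) holds 1. Of the genes higher in Ahr-/- samples, Spata13 (chr14:60634455-60634754, plus strand) holds 5 and Aqp9 (chr9:71162584-71162883, minus strand) holds 1, where a second start of Aqp9, not shown, has 0.
Ahrr: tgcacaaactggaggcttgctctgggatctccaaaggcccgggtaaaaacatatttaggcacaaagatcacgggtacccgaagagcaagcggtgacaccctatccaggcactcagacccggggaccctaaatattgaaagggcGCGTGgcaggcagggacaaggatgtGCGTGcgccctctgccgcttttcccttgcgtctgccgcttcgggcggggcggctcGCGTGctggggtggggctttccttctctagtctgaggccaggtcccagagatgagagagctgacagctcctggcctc
Dmxl2: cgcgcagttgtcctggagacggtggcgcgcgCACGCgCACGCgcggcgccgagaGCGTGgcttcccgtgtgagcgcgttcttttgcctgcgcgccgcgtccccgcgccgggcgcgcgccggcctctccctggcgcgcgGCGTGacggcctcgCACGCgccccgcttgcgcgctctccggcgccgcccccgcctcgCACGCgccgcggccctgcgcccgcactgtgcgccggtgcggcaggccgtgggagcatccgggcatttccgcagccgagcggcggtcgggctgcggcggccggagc
Atf3: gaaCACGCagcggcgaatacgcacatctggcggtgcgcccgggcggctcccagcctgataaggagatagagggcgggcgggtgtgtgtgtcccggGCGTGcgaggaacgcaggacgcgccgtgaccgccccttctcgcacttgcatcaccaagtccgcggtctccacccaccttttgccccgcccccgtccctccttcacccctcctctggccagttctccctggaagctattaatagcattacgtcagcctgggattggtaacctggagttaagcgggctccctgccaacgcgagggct
Notch1: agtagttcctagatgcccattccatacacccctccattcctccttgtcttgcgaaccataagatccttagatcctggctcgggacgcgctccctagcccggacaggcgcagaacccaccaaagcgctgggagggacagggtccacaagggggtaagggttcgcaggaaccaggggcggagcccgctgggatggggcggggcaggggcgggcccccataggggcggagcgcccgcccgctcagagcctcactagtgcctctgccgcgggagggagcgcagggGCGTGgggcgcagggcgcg
Spata13: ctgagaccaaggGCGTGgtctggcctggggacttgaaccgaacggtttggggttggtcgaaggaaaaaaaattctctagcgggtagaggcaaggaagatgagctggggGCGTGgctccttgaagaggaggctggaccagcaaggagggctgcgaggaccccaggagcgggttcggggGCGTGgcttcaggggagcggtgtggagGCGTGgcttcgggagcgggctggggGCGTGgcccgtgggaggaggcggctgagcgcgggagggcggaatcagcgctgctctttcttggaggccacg
Aqp9: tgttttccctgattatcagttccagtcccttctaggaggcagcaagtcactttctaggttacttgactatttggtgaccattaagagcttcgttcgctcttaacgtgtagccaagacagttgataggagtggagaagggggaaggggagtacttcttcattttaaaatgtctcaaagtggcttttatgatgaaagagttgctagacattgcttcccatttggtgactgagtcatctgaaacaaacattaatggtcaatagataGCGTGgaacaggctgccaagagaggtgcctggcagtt

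Among the separated genes higher in WT and not already named for these data, Dpep2 and Fcrls had the largest differences. Dpep2, on chromosome 8 from 105984945 to 106006026, encodes a membrane-bound dipeptidase that turns leukotriene D4 into leukotriene E4. It had 566, 982 and 1382 normalized counts in WT and 20.5, 35.0 and 60.3 in Ahr-/- samples. Every WT sample lay far above every Ahr-/- sample, and the difference was 3.49 (SE 0.17, limma adjusted p = 2.66e-09), with 3.84 in males and 3.14 in females. Fcrls, an Fc receptor-like scavenger receptor on chromosome 3 from 87250736 to 87263765, had 355, 445 and 668 in WT and 0, 6.51 and 13.7 in Ahr-/- samples. The groups did not overlap, and the difference was 3.49 (SE 0.19, adjusted p = 6.40e-09). Nmur1, on chromosome 1 from 86386242 to 86389361, encodes the receptor through which the neuropeptide neuromedin U of enteric neurons acts on immune cells. Its counts were 142, 182 and 269 in WT and 0, 4.17 and 8.48 in Ahr-/- samples. It was near 0 in every Ahr-/- sample, with a difference of 2.51 (adjusted p = 5.67e-08). Clec4b1, a C-type lectin receptor, had 62.9, 81.2 and 143 in WT and 0, 1.98 and 4.58 in Ahr-/- samples, again without overlap (difference 1.86). Emb, an accessory protein of monocarboxylate transporters, had 161 to 453 in WT and 30.3 to 93.1 in Ahr-/- samples. Sirpa, the receptor for the signal CD47 that restrains phagocytosis, was far more abundant and moved less, with 7630, 7972 and 8598 in WT and 5265, 6130 and 6611 in Ahr-/- samples. The groups were apart by a difference of 0.44 (SE 0.11, adjusted p = 0.0170).

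Of 46 cytokine receptors tested, 8 were called (17.4%), 3 higher in WT and 5 higher in Ahr-/- samples, and 8 or 9 over the fits that each lacked 1 sample. Csf2rb, the common beta chain through which IL-3, IL-5 and GM-CSF signal, had 4529, 6542 and 7566 normalized counts in WT and 1827, 2345 and 2726 in Ahr-/- samples. Csf2rb2, the beta chain specific to IL-3 in mice, had 1521, 2275 and 2816 in WT and 408, 638 and 840 in Ahr-/- samples. Neither pair of groups overlapped, and the differences were 1.45 and 1.78 (limma adjusted p = 1.39e-06 and 1.31e-06). The 2 genes are near-identical neighbours on chromosome 15, between which reads could be split, so their separate values are uncertain. Socs2, a feedback inhibitor that cytokine receptors of this kind induce, had 376, 789 and 1323 in WT and 158, 220 and 312 in Ahr-/- samples. The lowest WT sample lay above the highest Ahr-/- sample, with a difference of 1.5 (limma adjusted p = 4.27e-05). Irak2, a kinase-like adaptor below the receptors for IL-1 and Toll ligands, was also separated and higher in WT (0.95, limma adjusted p = 2.35e-05), whereas Tirap, an adaptor of Toll-like receptors, was separated and higher in Ahr-/- samples (-0.57, limma adjusted p = 8.70e-04).

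Ppbp, which encodes the CXCL7 chemokine precursor known from platelets, had 86.6, 298 and 473 normalized counts in WT and 0.758, 4.63 and 6.83 in Ahr-/- samples. The groups lay far apart, with a difference of 2.83 (SE 0.24, limma adjusted p = 1.10e-06). It lies on chromosome 5 next to Cxcl3, a chemokine that attracts neutrophils, which had 4800, 6932 and 10264 in WT and 618, 1070 and 1557 in Ahr-/- samples.

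Some regulators of transcription and of RNA were separated and higher in WT. Notch1, a receptor whose cleaved part enters the nucleus as a transcriptional activator, had 2286, 2747 and 3194 normalized counts in WT and 655, 784 and 1110 in Ahr-/- samples. The WT samples were all above the Ahr-/- samples, and the difference was 1.72 (SE 0.12, limma adjusted p = 1.46e-07). Atf3, a stress-induced factor of the ATF and CREB family, had 426, 737 and 915 in WT and 136, 208 and 364 in Ahr-/- samples. It was without overlap, with a difference of 1.42 (limma adjusted p = 3.40e-06). The myeloid factors Runx1 and Runx2 and the retinoic acid receptor Rara were separated in the same direction, with differences of 0.88, 0.88 and 0.84. Srsf10, a splicing factor, had 1207, 1713 and 2276 in WT and 472, 530 and 707 in Ahr-/- samples. Hnrnpll, which controls alternative splicing in lymphocytes, had 995, 1387 and 1706 in WT and 467, 530 and 741 in Ahr-/- samples. These 2 were separated by 1.54 and 1.18 (limma adjusted p = 6.52e-07 and 4.29e-07). Of the 56 splicing factors tested 3 were called in all, each higher in WT (5.36%). That share lay under the 8.84% of all genes called in either direction and above the 3.68% called higher in WT. Cdyl2, a chromodomain protein, differed by 1.45.

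Further separated genes higher in WT act in membranes, the cytoskeleton, protein turnover and metabolism. Ggta1, the galactosyltransferase that makes the alpha-gal epitope, had 1161, 1714 and 2001 normalized counts in WT and 334, 404 and 513 in Ahr-/- samples. Myof, a ferlin of membrane repair, had 198, 283 and 355 in WT and 13.7, 30.3 and 55.5 in Ahr-/- samples. Dmxl2, a regulator of the vacuolar proton pump, had 1740, 2239 and 3326 in WT and 661, 751 and 964 in Ahr-/- samples. None of the 3 overlapped between genotypes, and the differences were 1.84, 1.99 and 1.55. Asb2, part of a ubiquitin ligase that degrades filamins, and Rflnb, which binds filamins, both related to the actin crosslinker filamin, were higher in WT by 1.70 and 1.01 (limma adjusted p = 8.99e-08 and 6.41e-06). The ubiquitin ligase Itch differed by 0.53 and Cpd, a carboxypeptidase of the secretory route, by 0.67. Acpp, an acid phosphatase that can make adenosine from AMP, had 2551, 3915 and 4142 in WT and 855, 1144 and 1390 in Ahr-/- samples. Fth1, the ferritin heavy chain that stores iron, was the separated gene with the highest mean among those higher in WT, with 13548, 14898 and 16794 in WT and 6081, 9577 and 11999 in Ahr-/- samples. The 2 groups did not overlap for either gene, and the differences were 1.65 and 0.75 (limma adjusted p = 2.33e-07 and 0.00191). The difference of Fth1 was 0.98 in males and 0.53 in females. Dnah2, a dynein heavy chain of cilia, and Ovca2, a hydrolase, differed by 1.90 and 1.5. Abr differed by 0.42 (limma adjusted p = 0.0226), and its call was lost without WT F3, Ahr-/- F2, Ahr-/- M2 or Ahr-/- M3 (adjusted p up to 0.0601). Dennd1b, which activates Rab35, differed by 0.67 (adjusted p = 0.0111) and was not called without both F3 samples (adjusted p = 0.0673).

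**Figure D2:**
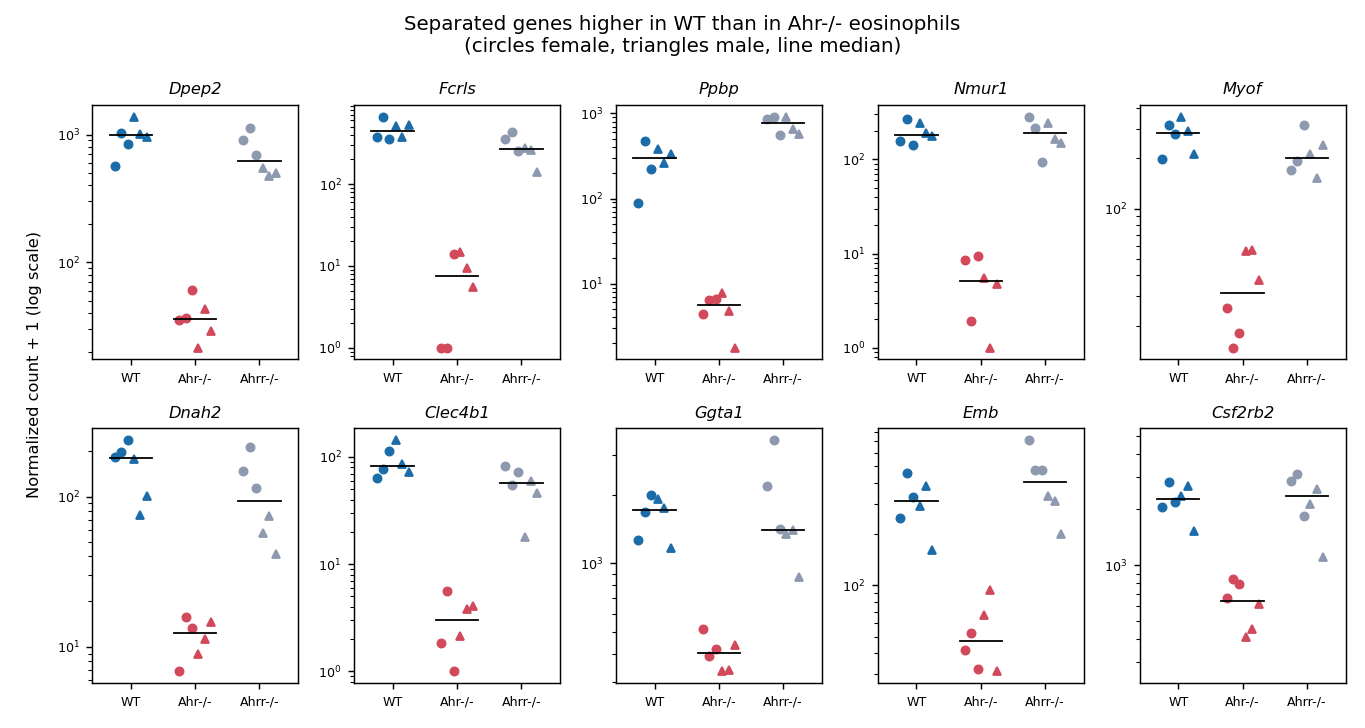
Normalized count + 1 on a log axis, 1 panel per gene, for the 10 separated genes with the largest differences toward WT among those not already named for these data. Each point is 1 sample (circles female, triangles male), the line is the median of the 6 samples of a genotype, and the samples labelled Ahrr-/- are drawn for comparison only. For Dpep2 the WT samples sit between 566 and 1382 and the Ahr-/- samples between 20.5 and 60.3.

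Of the separated genes not already named for these data, the 20 largest differences toward Ahr-/- samples ran from -1.76 to -1.24. Clec12a, an inhibitory C-type lectin that senses uric acid crystals, lies on chromosome 6 from 129349783 to 129365303 and had 175, 202 and 288 normalized counts in WT and 710, 840 and 1184 in Ahr-/- samples. The lowest Ahr-/- sample lay above the highest WT sample, and the difference was -1.76 (SE 0.12, limma adjusted p = 1.27e-07). Klra2, a member of the Ly49 receptors, had 190, 398 and 533 in WT and 1127, 1228 and 1501 in Ahr-/- samples. Its groups were apart as well (difference -1.71), although reads could be split among the near-identical Klra genes and its value is uncertain. Il13ra1, a receptor chain for IL-4 and IL-13, had 276, 295 and 398 in WT and 510, 634 and 712 in Ahr-/- samples. It was separated, with a difference of -0.85 (limma adjusted p = 1.15e-04), and so was Il17ra, the receptor for IL-17A (-0.60).

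Secreted factors included growth factors of tissue repair. Tgfb2, a ligand of the TGF-beta receptors on chromosome 1 from 186622787 to 186709697, had 14.1, 35.4 and 62.1 normalized counts in WT and 103, 270 and 339 in Ahr-/- samples. Hgf, the hepatocyte growth factor that acts on epithelium through MET, had 1410, 2764 and 4145 in WT and 4725, 7661 and 8626 in Ahr-/- samples. The groups did not overlap for either factor, and the differences were -1.73 (SE 0.19, limma adjusted p = 2.24e-05) and -1.36 (SE 0.22, adjusted p = 9.08e-04). Retnlg, a resistin-like protein known from neutrophils and their precursors, was the most abundant of the separated genes, with 23350, 35385 and 48259 in WT and 54605, 82172 and 113020 in Ahr-/- samples. Its difference of -1.21 was called (limma adjusted p = 0.00453), with -0.89 in males and -1.54 in females. Of the other neutrophil markers tested, S100a8, S100a9, Ltf and Ngp differed by -0.33, -0.41, -0.23 and 0.08 without a call (limma adjusted p = 0.593, 0.396, 0.472 and 0.916), and Elane had 0 counts in all 12 samples. Pltp, a plasma phospholipid transfer protein, rose from a median of 2.79 to 70.8, and Serpina11, a serine protease inhibitor, from 138 to 603, both without overlap.

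Nuclear regulators higher in Ahr-/- samples included Id2, Ikzf2, Mkx, Dach1, Myc and Gadd45g. Id2, which holds helix-loop-helix factors off DNA, had 110, 143 and 240 normalized counts in WT and 326, 569 and 692 in Ahr-/- samples. Ikzf2, the lymphoid zinc finger factor Helios, had 724, 982 and 1510 in WT and 2285, 2849 and 3073 in Ahr-/- samples. Both were apart in all samples, by -1.52 and -1.39 (limma adjusted p = 3.52e-06 and 1.96e-05). Gadd45g, which binds MAP kinase kinase kinases and is induced by stress, had 16.6, 26.6 and 39.2 in WT and 109, 196 and 417 in Ahr-/- samples. Dach1, a transcriptional cofactor, had 795, 960 and 1346 in WT and 2287, 2410 and 2757 in Ahr-/- samples. Myc, the growth regulator, had 400, 454 and 664 in WT and 815, 1009 and 1329 in Ahr-/- samples. No sample of these 3 genes crossed between the genotypes, and the differences were -1.75, -1.25 and -0.99 (limma adjusted p = 4.39e-06, 1.03e-05 and 3.63e-05). Mkx, a homeobox factor, differed by -1.28.

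Other separated genes higher in Ahr-/- samples encode transporters and signalling proteins. Aqp9, a channel for water and glycerol, had 366, 557 and 772 normalized counts in WT and 1282, 1676 and 2344 in Ahr-/- samples. Abcg2, an efflux pump for xenobiotics and porphyrins, had 448, 574 and 645 in WT and 1250, 1387 and 1659 in Ahr-/- samples. Slc40a1, the iron exporter ferroportin, had 577, 920 and 1043 in WT and 1364, 1814 and 2546 in Ahr-/- samples. The 3 transporters were each higher in all 6 Ahr-/- samples, by -1.49, -1.24 and -1.09 (limma adjusted p = 1.63e-05, 2.19e-07 and 4.39e-05). Atp13a2, a lysosomal polyamine transporter, and Cacna2d2, a calcium channel subunit, differed by -1.33 and -1.42. Spata13, an exchange factor for Rac and Cdc42, had 603, 742 and 1044 in WT and 1549, 1847 and 2325 in Ahr-/- samples, and Chn2, which switches Rac off, had 232, 325 and 401 in WT and 823, 862 and 942. Both were separated, by -1.25 and -1.34. Inpp5j, a phosphoinositide phosphatase, Sla, an adaptor that dampens antigen receptor signals, and Anxa6, a membrane-binding annexin, differed by -1.27, -0.63 and -0.80. Rims3, a protein of vesicle release, differed by -1.36. Bcas3os2, an antisense gene that differed by -1.24, is uncertain because the sources do not state that the counting used strand.

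Some abundant genes were separated toward Ahr-/- samples with calls that single samples decided. Alox15, the lipoxygenase typical of eosinophils, had 12882, 17260 and 19810 normalized counts in WT and 22066, 24895 and 27548 in Ahr-/- samples. The groups did not overlap, but the difference of -0.58 (limma adjusted p = 0.0230) was not called without WT M3, Ahr-/- F1, Ahr-/- F2, Ahr-/- F3 or Ahr-/- M3 (adjusted p up to 0.0589). Cybb, the catalytic subunit of the phagocyte oxidase, had 10794, 13401 and 16111 in WT and 16488, 19442 and 21703 in Ahr-/- samples. Its difference of -0.52 (adjusted p = 0.0332) was not called without WT F1, WT F3, WT M2, WT M3, Ahr-/- F1, Ahr-/- F2 or Ahr-/- M3 (adjusted p up to 0.0900). The calls of Itgax (-0.42), Plcb2 (-0.39) and Rpl5 (-0.49) were lost without WT F3, Ahr-/- F1, Ahr-/- F3 or Ahr-/- M3 for each, without WT F1, WT M3, Ahr-/- F2 or Ahr-/- M1 for Itgax and Plcb2, without WT M2 for Itgax and Rpl5, and without WT F2 for Rpl5, with adjusted p up to 0.104, 0.0942 and 0.0777.

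**Figure D3:**
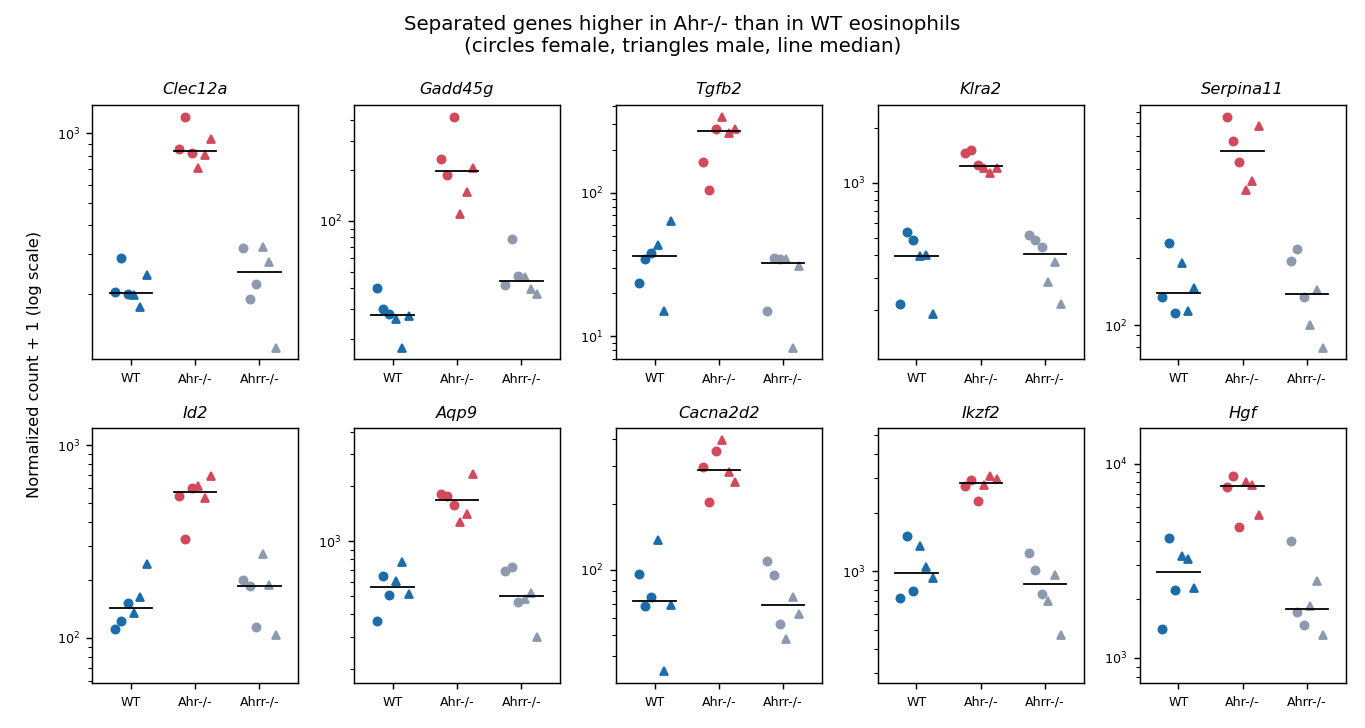
Normalized count + 1 on a log axis, 1 panel per gene, for the 10 separated genes with the largest differences toward Ahr-/- samples among those not already named for these data. Each point is 1 sample (circles female, triangles male), the line is the median of the 6 samples of a genotype, and the samples labelled Ahrr-/- are drawn for comparison only. For Clec12a the WT samples sit between 175 and 288 and the Ahr-/- samples between 710 and 1184.

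Functions were described with 53 lists of genes in 8 themes, read against the 8.84% of all tested genes that were called. Of these lists 36 had a higher share. The lists were chosen with earlier results of these data known, so that number depends on the choice and is no separate result. In small lists 1 call was enough, as for tryptophan and kynurenine enzymes with 1 of 8 called. The highest shares among lists of at least 18 tested members were those of surface receptors and of feedback regulators. Of 36 C-type lectin and immunoglobulin-like receptors tested, 15 were called (41.7%), 4 higher in WT and 11 higher in Ahr-/- samples, with a median difference of -0.32, and 10 to 17 were called over the fits that each lacked 1 sample. Besides Clec4b1 and Clec12a, the list held Clec4a4, another C-type lectin (4.13), and Klrb1f, of the NKR-P1 receptors (-1.15). Among 7 Fc receptors, the activating receptor Fcgr4 had 180, 243 and 399 normalized counts in WT and 73.5, 85.0 and 88.0 in Ahr-/- samples, while the inhibitory receptor Fcgr2b had 427, 559 and 862 in WT and 920, 987 and 1326. Both were separated, in opposite directions, with differences of 1.18 and -0.81 (limma adjusted p = 2.24e-05 and 0.00191).

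Of 57 G protein-coupled receptors for chemokines, lipids and nucleotides, 17 were called (29.8%), 6 higher in WT and 11 higher in Ahr-/- samples, and 11 without Ahr-/- F1 or without Ahr-/- M3. P2ry10, a receptor for lysophosphatidylserine, had 609, 996 and 1602 normalized counts in WT and 1965, 2304 and 3205 in Ahr-/- samples. Adgrg3, an adhesion receptor of granulocytes, went the other way, with 2378, 3124 and 3912 in WT and 1038, 1168 and 1774 in Ahr-/- samples. The groups of both were apart (limma adjusted p = 0.00110 and 1.58e-05). Hcar2, which senses niacin and butyrate, and Ccr1, a chemokine receptor, were called with overlapping groups, by -1.13 and 1.12. RGS proteins, which shut off such receptors' G proteins, had 4 of 9 called (44.4%, against 8.84% of all genes tested), 2 in each direction. Rgs14 and Rgs10 were separated and higher in WT (0.89 and 0.74), and Rgs18 and Rgs2 were higher in Ahr-/- samples (-0.56 and -0.45). The count was 2 without WT F3, Ahr-/- F1, Ahr-/- F2, Ahr-/- F3 or both F3 samples, which lost the calls of Rgs18 and Rgs2, and that of Rgs2 was also lost without WT F1, WT M3, Ahr-/- M1 or Ahr-/- M3 (adjusted p up to 0.0631 and 0.1 without 1 sample).

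Of 18 dual-specificity phosphatases, Sprouty and GADD45 genes, which include feedback inhibitors of MAP kinases, 6 were called, all higher in Ahr-/- samples (33.3%, median difference -0.37). Over the whole list 7 differed toward WT and 11 toward Ahr-/- samples, called or not, and 5 to 8 were called over the fits that each lacked 1 sample. Dusp6, which dephosphorylates ERK, had 368, 503 and 709 normalized counts in WT and 802, 984 and 1136 in Ahr-/- samples. Dusp16, which acts on JNK and p38, had 983, 1856 and 2599 in WT and 2449, 3818 and 5640. Dusp6 was separated, the ranges of Dusp16 overlapped slightly, and the 2 genes had differences of -0.85 and -1.13 (limma adjusted p = 5.37e-05 and 0.00118). Of 26 immediate early genes, which the same kinases induce, 5 were called (19.2%, against 8.84% of all genes tested). Of these 2 were higher in WT and 3 higher in Ahr-/- samples, and the count was 3 without WT F3, Ahr-/- F1 or Ahr-/- F2. Zfp36l2, an RNA-binding protein that speeds decay of messages, was separated toward Ahr-/- samples (-0.78, limma adjusted p = 6.70e-04). Rasgrp4, an exchange factor for Ras in myeloid and mast cells, was separated toward WT (0.89), and Arhgap6 and Arhgap27 toward Ahr-/- samples (-0.73 and -0.70).

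Of 23 secreted cytokines and growth factors, 6 were called (26.1%), 1 toward WT and 5 toward Ahr-/- samples, and 4 to 8 were called over the fits that each lacked 1 sample. Called or not, 10 of the 23 differed toward WT and 13 toward Ahr-/- samples (median -0.06). The 1 called toward WT was Csf1, the macrophage growth factor, with 1000, 1377 and 2250 normalized counts in WT and 346, 639 and 939 in Ahr-/- samples, where the groups did not overlap. Il6 ranged widely, from 40.6 to 787 in WT and from 195 to 2264 in Ahr-/- samples. Its ranges overlapped, and its call (-1.46, limma adjusted p = 0.0334) was lost without WT F3, WT M3, Ahr-/- F1, Ahr-/- F2, Ahr-/- M2 or Ahr-/- M3 (adjusted p up to 0.0830). Of 13 chemokine genes 4 were called (30.8%), Cxcl3 toward WT and Ccl6, Ccl3 and Cxcl1 toward Ahr-/- samples, and 2 without both F3 samples. Over the whole list 7 differed toward WT and 6 toward Ahr-/- samples, with a median difference of 0.17. Ccl6 had 3574, 5367 and 7694 in WT and 6951, 11474 and 13688 in Ahr-/- samples, with a small overlap (-0.95, limma adjusted p = 0.00677), and was not called without both F3 samples (adjusted p = 0.0514). Ccl3 was not called without WT F3, Ahr-/- F2, Ahr-/- F3 or Ahr-/- M3 (adjusted p up to 0.0558). Of 27 genes of TGF-beta and BMP signalling 5 were called, all higher in Ahr-/- samples (18.5%), while 10 members differed toward WT and 17 toward Ahr-/- samples, called or not (median -0.08). Besides the ligand Tgfb2 the called genes included the receptor Tgfbr2 (852, 920 and 959 in WT; 1058, 1340 and 1653 in Ahr-/- samples) and the signal transducer Smad3 (273, 339 and 395; 404, 578 and 683). Ligand, receptor and transducer were each separated, with limma adjusted p of 2.24e-05, 0.00631 and 0.00132.

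The BCL2 family, of survival and death genes, had 4 of 17 called, all higher in Ahr-/- samples (23.5%, with 5 members toward WT and 12 toward Ahr-/- samples, called or not), and 4 or 5 over the fits that each lacked 1 sample. Bcl2 had 202, 280 and 346 normalized counts in WT and 287, 443 and 537 in Ahr-/- samples, with overlapping groups (-0.59, limma adjusted p = 0.00705). The other 3 were the Bcl2a1a, Bcl2a1b and Bcl2a1d genes (-1.15, -1.04 and -0.99), near-identical copies whose reads could be split. Mcl1, the most abundant member, was not called (0.18, limma adjusted p = 0.518). Of 23 integrins 6 were called (26.1%, against 8.84% of all genes tested), 1 higher in WT and 5 higher in Ahr-/- samples. The count was 3 without Ahr-/- F1, Ahr-/- F2 or Ahr-/- M3, and 1 without both F3 samples. The integrin with the largest difference was Itgal, the alpha chain of LFA-1, with 2169, 2435 and 3419 in WT and 4618, 5738 and 7212 in Ahr-/- samples. Its groups lay apart (-1.13, limma adjusted p = 1.52e-05), whereas Itga4, the most abundant integrin, was not called (-0.21, adjusted p = 0.475).

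In lipid metabolism, the synthesis of leukotrienes and prostaglandins had 7 of 26 genes called (26.9%), 3 higher in WT and 4 higher in Ahr-/- samples, and 4 without Ahr-/- F2, Ahr-/- F3 or Ahr-/- M3 or without both F3 samples. Next to Dpep2, Ptgs1, the constitutive cyclooxygenase, had 570, 705 and 1061 normalized counts in WT and 262, 299 and 372 in Ahr-/- samples. Alox12e, a lipoxygenase, had 64.5, 98.9 and 142 in WT and 205, 281 and 493 in Ahr-/- samples. The WT samples were thus higher for Ptgs1 and lower for Alox12e in every case, with differences of 1.11 and -1.19 (limma adjusted p = 3.59e-05 and 8.17e-05). Of 37 genes of cholesterol synthesis, uptake and efflux 5 were called (13.5%), 1 higher in WT and 4 higher in Ahr-/- samples, and 3 without both F3 samples. Cyp51, an enzyme of sterol synthesis, Scap, the escort of the sterol-sensing factors, and Npc2, which carries cholesterol out of lysosomes, were separated toward Ahr-/- samples (-0.82, -0.51 and -0.48). Msmo1, an enzyme of the same synthesis, was called toward WT with overlap (0.52, limma adjusted p = 0.0420), but not without WT F2, WT M1, WT M2, Ahr-/- F1, Ahr-/- F3, Ahr-/- M1, Ahr-/- M2 or Ahr-/- M3 (adjusted p up to 0.108) or without both F3 samples (0.0849). ABC transporters had 7 of 32 called, all higher in Ahr-/- samples (21.9%), while 16 members differed toward WT and 16 toward Ahr-/- samples, called or not (median 0.01). Abcc2 (512, 793 and 1083 in WT; 1157, 1287 and 1470 in Ahr-/- samples) was separated, as was Abcg2, and 5 to 8 of the list were called over the fits that each lacked 1 sample. Of 29 genes of glycolysis 5 were called (17.2%, against 8.84% of all genes tested), 2 higher in WT and 3 higher in Ahr-/- samples. The count was 2 without Ahr-/- F2 and 3 without WT M3 or Ahr-/- F1. Hif1a, the hypoxia factor that also pairs with ARNT, had 2313, 4020 and 6015 in WT and 1469, 1992 and 3159 in Ahr-/- samples, with overlap (0.84, limma adjusted p = 0.01). Hk2, a hexokinase, was separated toward Ahr-/- samples (-0.47). NADPH oxidases and their subunits, Duox2 among them, had 4 of 9 called (44.4%), 2 in each direction. The count was 1 without WT F3, Ahr-/- F2, Ahr-/- M3 or both F3 samples, and 2 without WT F1, WT M3, Ahr-/- F1 or Ahr-/- F3.

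Of 9 partners and chaperones of AHR tested 1 was called (11.1%), and 2 without WT F2, WT M1 or Ahr-/- M1. Called or not, 4 differed toward WT and 5 toward Ahr-/- samples (median -0.03). The called gene, the chaperone Hsp90aa1, had 3303, 3555 and 5993 normalized counts in WT and 2075, 2422 and 3538 in Ahr-/- samples. The groups overlapped, and the gene was called higher in WT (0.63, limma adjusted p = 0.00615). Of 60 heat shock and DnaJ genes 4 were called, all higher in WT (6.67%), and 3 to 7 over the fits that each lacked 1 sample, with 7 without WT M1, and 2 without both F3 samples. Secretion genes had 6 of 34 called (17.6%), 3 in each direction, but 4 without Ahr-/- F3 and 3 without both F3 samples, with Stx17 and Stxbp5 separated toward WT (0.90 and 0.75) and Sytl1 toward Ahr-/- samples (-0.66). Of 37 interferon-stimulated genes 5 were called (13.5%), 4 toward WT and 1 toward Ahr-/- samples, and 3 without both F3 samples. The largest difference was that of Usp18, which removes ISG15 from proteins, with 146, 190 and 284 in WT and 45.8, 78.9 and 99.1 in Ahr-/- samples. Usp18 showed no overlap and differed by 1.0 (limma adjusted p = 2.93e-04).

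Cell cycle and DNA replication genes had 5 of 46 called (10.9%), 3 higher in WT and 2 higher in Ahr-/- samples. The count was 2 without Ahr-/- F1 and 9 without WT M2, and 40 of the 46 differed toward WT, called or not. Some other lists lay under the 8.84% of all genes. By limma 0 were called of 76 mitochondrial ribosomal proteins, 48 proteasome subunits, 33 genes of the unfolded protein response, 22 genes of MHC class I presentation and 20 aminoacyl-tRNA synthetases. At an unadjusted p under 0.05 limma gave 4, 7, 6, 4 and 2 of them, in that order. limma voom also called 0 in each of these lists, with 4, 7, 6, 3 and 2 at an unadjusted p under 0.05. Leaving out 1 sample raised the count to 1 for the proteasome (without Ahr-/- F3, and likewise without both F3 samples), for the unfolded protein response (without WT F2 or without WT M1) and for MHC class I presentation (without WT M2). The median differences of the 5 lists lay between -0.04 and 0.12. Of 266 zinc finger genes named Zfp 6 were called (2.26%), and 11 without WT F2. Oxidative phosphorylation had 3 of 76 called (3.95%), 2 higher in WT and 1 higher in Ahr-/- samples. The count was 1 without WT F3, Ahr-/- F1, Ahr-/- F2, Ahr-/- M3 or both F3 samples and 6 without WT F2. Called or not, 68 of the 76 had a positive difference, and the median was 0.20. The most abundant member of this list, Atp5b, was highest in WT F1 and WT M3 (17235 and 10359 normalized counts). These were also the WT samples with the highest summed enterocyte markers (22550 and 14424), and a link between the 2 was not tested.

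**Figure D4:**
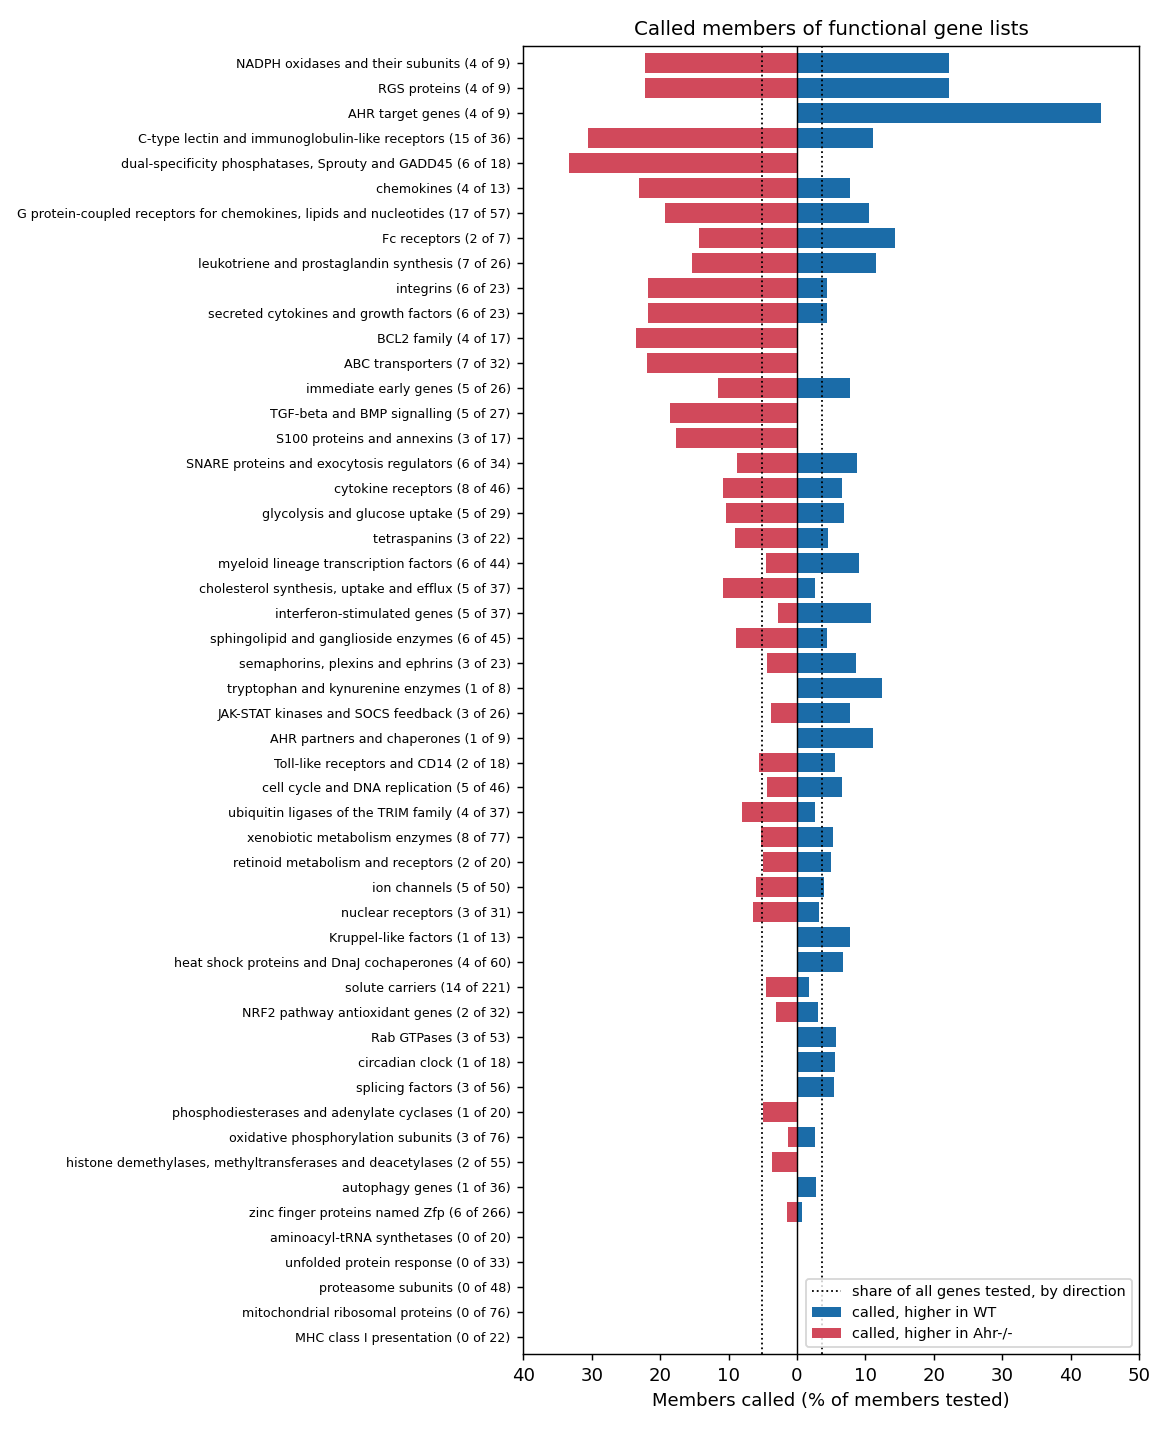
Bars give the called members of each list as a percentage of its members tested, to the right for genes higher in WT and to the left for genes higher in Ahr-/- samples, with the counts after each name. Dotted lines mark the share of all genes tested, 3.68% higher in WT and 5.16% higher in Ahr-/- samples. C-type lectin and immunoglobulin-like receptors had 15 of 36 members called, and mitochondrial ribosomal proteins 0 of 76.

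Separated genes often lay near each other. Of 468 separated genes with a position, 104 (22.2%) had another separated gene within 100000 bases, against 1155 of 10871 other tested genes (10.6%), and for 99 of the 104 a near neighbour moved the same way. Genome neighbours share chromatin, reads of overlapping transcripts and, in mice that are not littermates, inherited stretches of DNA, and which of these played a part was not tested. On chromosome 8 from 105984945 to 106053840, Dpep2, Ddx28 and Dus2 were all the genes tested and all were separated toward WT, with differences of 3.49, 1.38 and 1.28. Ddx28, a mitochondrial helicase, and Dus2, which modifies transfer RNA, overlap at their ends, so their reads could be confused. On chromosome 15 from 78244164 to 78351001, Ncf4, an oxidase subunit (0.52), stood beside Csf2rb2 and Csf2rb. Pex26, Tuba8 and Usp18 on chromosome 6 (0.87, 0.66 and 1.0) and Tex9, Rfx7 and Nedd4 on chromosome 9 (0.97, 0.49 and 0.53) were further runs toward WT. Exoc3, part of the exocyst and the neighbour of Ahrr on chromosome 13, was higher in WT by 1.41. Toward Ahr-/- samples, Kidins220 lay beside Id2 (-1.16), Clec1b beside Clec12a (-0.68), and Trem1 and Trem3, activating receptors of myeloid cells, lay side by side (-0.93 and -0.85). Chromosome 6 had 46 of 569 tested genes separated (8.08%), against 4.14% of all genes tested. It was picked after the values were seen, as the chromosome with the highest share, and chromosome 1 came next with 5.68%. Chromosome 6 carries the natural killer and C-type lectin receptor clusters, and how many of the 46 lie in them was not counted.

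The samples labelled Ahrr-/- share no test with the values above and are given only as levels; Ahrr itself had 925, 1281 and 1888 normalized counts in them, not below the WT level, so the count does not check this label and the samples are named as labelled. The Dpep2 counts there were 477, 617 and 1130, those of Fcrls 138, 268 and 434, and those of Notch1 1674, 3017 and 3524. These ranges overlapped those of WT but reached lower. All males labelled Ahrr-/- (547, 477 and 503) were below the lowest WT sample for Dpep2, 566. The Fcrls median was below the lowest WT sample, 355. Clec12a had 116, 249 and 320 there, Tgfb2 7.31, 31.5 and 34.4, and Id2 102, 186 and 272, within or near the WT range and below all Ahr-/- samples. Ppbp lay higher there than in any WT sample, with 551, 762 and 920. No test was made of these levels.

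Transcripts used as markers of other cells were present and some differed by genotype, and which cells they came from was not tested. Counts of called markers, here and in the next paragraph, stand beside 3.68% of all genes called higher in WT and 5.16% higher in Ahr-/- samples. Of 6 goblet cell markers 5 were called higher in WT, Muc2, Spink4, Zg16, Clca1 and Agr2, and their summed normalized count was 7013, 10308 and 19433 in WT and 4662, 5377 and 6327 in Ahr-/- samples. The sums did not overlap, and Muc2, the gel-forming mucin, was the most abundant, with a mean of 3475 in WT and 1506 in Ahr-/- samples. The calls of Muc2, Spink4 and Zg16 held whichever sample was left out, but that of Zg16 was lost without both F3 samples (adjusted p = 0.0603). Those of Agr2 and Clca1 were lost without WT F3, WT M2, Ahr-/- F2, Ahr-/- F3, Ahr-/- M2 or Ahr-/- M3 for both, without WT F1, WT M3 or Ahr-/- M1 for Agr2 and without Ahr-/- F1 for Clca1 (adjusted p up to 0.0779 and 0.083). Of 8 acinar markers of the pancreas tested, 3 were called higher in WT, with sums of 86.2, 1542 and 4757 in WT and 43.3, 109 and 609 in Ahr-/- samples, led by Ctrb1. The call of Ctrb1 was lost without WT F3, Ahr-/- F2 or Ahr-/- F3 (adjusted p up to 0.0544). Those of Cela2a and Prss2 were lost without Ahr-/- F1, F2, F3, M2 or M3, and that of Prss2 without Ahr-/- M1 (adjusted p up to 0.0854 and 0.105), and without WT F1, F2, F3 or M3 their counts fell below the minimum for testing. Of the other epithelial markers, 0 of 14 enterocyte markers and 0 of 6 Paneth cell markers were called by limma or by limma voom, with 2 and 1 at an unadjusted p under 0.05 by either, and their sums overlapped (5527, 8962 and 22550 in WT and 4092, 8377 and 10960 in Ahr-/- samples; 1773, 5908 and 14674 in WT and 1403, 6588 and 8428 in Ahr-/- samples). The median differences over their genes, 0.36 and 0.43, lay toward WT like that of the goblet markers, 0.90, while the median Paneth sum was higher in Ahr-/- samples, and whether the lists differ was not tested. Outside these marker lists, Duox2, from the list of NADPH oxidases, and Sema5a, a semaphorin, were called toward WT (0.91 and 0.80). Both calls were lost without WT M3, Ahr-/- F2, Ahr-/- F3 or Ahr-/- M3. That of Duox2 was also lost without WT F3 and that of Sema5a without Ahr-/- F1 (limma adjusted p up to 0.0643 and 0.0832). Of 8 markers of dividing cells Top2a was called (0.92), but not without WT F3, WT M3, Ahr-/- F1, Ahr-/- F2, Ahr-/- F3 or Ahr-/- M3 (adjusted p up to 0.0861). The sums of the 8 overlapped, with 3117, 3763 and 6619 in WT and 2162, 2745 and 3922 in Ahr-/- samples, and their median difference was 0.48.

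The list of eosinophil markers summed to 24866, 35018 and 38211 in WT and 38503, 44609 and 49555 in Ahr-/- samples, without overlap, with Alox15 as the most abundant gene. The list of neutrophil markers summed to 23736, 35649 and 48579 in WT and 54978, 83451 and 113331 in Ahr-/- samples, nearly all of it Retnlg. Of 10 macrophage and dendritic cell markers Csf1r was called toward Ahr-/- samples (-0.49) and the complement genes C1qb and C1qc were not. Pecam1, an endothelial marker that leukocytes also carry, was separated toward WT (0.63), while Vwf was not called (-0.08). Of the 8 tested markers of fibroblasts, mast cells, B and plasma cells and T cells and innate lymphocytes, 0 were called by limma or by limma voom, and 1 of B and plasma cells had an unadjusted p under 0.05 by limma and 0 by voom. The part of these marker levels in the differences described above was not tested. In bulk RNA, fewer cells of a type and less RNA per cell cannot be told apart.

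**Figure D5:**
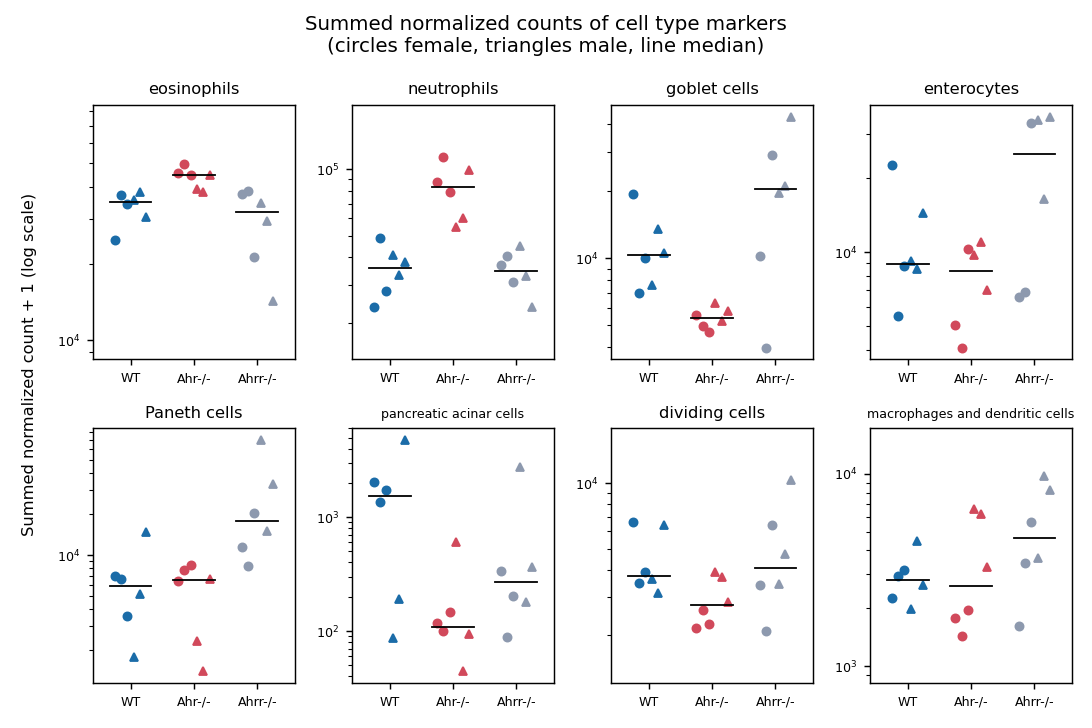
Summed normalized count + 1 of the markers of 8 cell types on a log axis, with 1 point per sample (circles female, triangles male) and a line at the median of the 6 samples of each genotype. The goblet cell sums lie between 7013 and 19433 in WT and between 4662 and 6327 in Ahr-/- samples, while the enterocyte and Paneth cell sums overlap.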

How the data were processed

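The authors aligned single-ended reads to GRCm38 (submitters' notes name mm10, STAR 2.5.2, RSEM 1.3.0 and R 4.0.3), counted them with nf-core/rnaseq and deposited variance-stabilized values on a log2 scale made with DESeq2 from counts divided by size factors, for 22708 genes. Inverting the transformation returned counts that were whole within 0.0001 for 100% of the table, and these served for depth, normalized counts and limma voom; the lowest value, 5.02, is a count of 0. Genotype was fitted with limma 3.58.1 (R 4.3.3, mean-variance trend, sex as covariate) on the deposited values of the 12 WT and Ahr-/- samples, over genes whose mean was at least 1 above the lowest value, with Benjamini-Hochberg adjustment at 0.05 over all genes tested. Tables and figures used Python 3.11.15, numpy 2.4.6, pandas 2.3.3 and matplotlib 3.10.9, and the fit was tested on simulated data. RefSeq matched 22685 genes.

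Genes were named by rule: Ahr and AHR target genes; of the separated genes not already named for these data, the 20 with the largest difference and the 8 with the highest mean in each direction; in each list up to 4 called members with the largest difference and the most abundant member; and cell type markers. Neighbours of separated genes were named after their values were seen. Members and lists were chosen with earlier results of these data known. The counts of 1 list are not reported here.

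Alternatives were no minimum mean, a minimum of 3 above the lowest value, median centring, quantile normalization, no trend, sample weights, no sex covariate, the replicate number as a block, all 18 samples in the fit, log2(count + 1), limma voom, leaving out each sample and, added after seeing the data, leaving out both F3 samples.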

Additional observations from a re-analysis of the deposited data

Results flagged for a closer look

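In 13 of 172 groups of 6 samples checked, 1 sample was farther from its nearest neighbour than Dixon's critical value of 0.625 of the group's range allows, which chance gives in about 1 in 20 groups. For the number of genes detected these were WT F3 with 20244 (next 16526) and Ahr-/- F3 with 19694 (next 16704). For single genes, on the variance-stabilized scale, they were Acpp in WT M3 with 11.35 (next 11.92), Abcg2 in WT F3 with 9.0 (next 9.30) and Fgf21 in WT M1 with 5.27, where the other WT samples were at 5.02. In Ahr-/- samples they were Nqo1 in M2 with 6.92 (next 6.49), Id2 in F2 with 8.60 (next 9.22), Rims3 in F2 with 6.80 (next 7.70), Dennd1b in F3 with 11.88 (next 12.17) and Lrat in M1 with 6.89 (next 6.34). Aldh3a1 in Ahr-/- F3 was 5.37, where the other 5 samples were at 5.02. Of the marker sums, the acinar sum was 609 in Ahr-/- M1 (next 145) and the fibroblast sum 211 in WT F3 (next 91.2). Acpp, Abcg2, Id2, Rims3, Dennd1b and Nqo1 are separated genes, so by that definition the sample apart lay on its own genotype's side.

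In samples that entered no test, Ppbp was above the WT level. The lowest normalized count in the samples labelled Ahrr-/- was 551, where the highest WT sample had 473.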

How the results depend on the processing

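The count of genes called for genotype was 553 with all 18 samples in the fit (236 higher in WT and 317 higher in Ahr-/- samples), 546 of which were among the 1003, and 586 without both F3 samples (252 and 334), an alternative chosen after seeing the data. A stricter minimum level tested 5323 genes and left 257 called genes higher in WT and 308 called genes without overlap. With each sample left out in turn, between 623 and 1124 genes were called, between 257 and 477 higher in WT, between 366 and 647 higher in Ahr-/- samples, and between 411 and 623 without overlap. Under the other alternatives the counts stayed within 1.5 times. The replicate number as a block gave 918 called genes (370 and 548), 439 without overlap. Deviations of same-numbered samples correlated by -0.267 (F1), 0.476 (F2), 0.05 (F3), -0.111 (M1), -0.035 (M2) and 0.056 (M3), over 0.1 only for F2, so the numbers were not taken to pair the samples. A feature shared by samples of 1 number is not excluded. Of 4507 values of 190 called named genes under 24 alternatives, 3985 kept the call, 522 lost it and 0 reversed, and 83 genes kept it under every alternative run. Of the 55 separated genes named by size or mean, 49 kept the call whichever sample was left out. All these named genes were chosen as called in the same samples, so kept calls and the lack of reversals are no independent check. Of 1272 list counts under alternatives, 1041 stayed within 1.5 times of the main count and 231 moved more. Depth was lowest in WT (median 6022410 counts), which limits genes with low counts there, and the cause of the losses was not tested.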
